A study of Mus musculus with 5 samples.

Results

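The genes Mbp, Cnp, S100b, Ncam1, Ngfr and L1cam, kept as markers of Schwann cells and nerve fibres, were followed through RNA libraries of mouse mitral valve leaflets with and without a knockout of Ift88. They were chosen by symbol, as 6 of the 24062 gene rows of the deposited count table, and all 6 had reads and passed the filter on low counts. Ift88 encodes a protein of intraflagellar transport, which builds cilia. Total RNA of mitral leaflets was sequenced in 5 libraries, 2 titled wild type (WT) and 3 titled knockout (KO). All 5 are described as NfatC1Cre(+), a Cre driver of the endocardial lineage, so nerve and Schwann cells, which arise outside that lineage, are not its known targets. The genotype field gives Ift88f/f for the WT libraries and Ift88+/+ for the KO libraries, the reverse of what the titles say. Groups here follow the titles. The sources used here do not give age, sex or whether each library is 1 animal, so p-values measure the spread between these libraries, which may be technical.

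The valve leaflets carry a sparse network of nerve fibres, and peripheral axons are wrapped by Schwann cells. Myelinating Schwann cells build a compacted membrane sheath in which MBP holds the cytoplasmic faces together, while CNP lies in the non-compacted cytoplasm of the sheath. S100B is a calcium-binding protein used to stain Schwann cells, and melanocytes make it too. NCAM1 and L1CAM are adhesion molecules of the immunoglobulin superfamily found on axons and non-myelinating Schwann cells. NGFR is the low-affinity neurotrophin receptor, abundant on immature and injury-activated Schwann cells.

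Library totals lay between 23361414 and 53789026 counted reads, and 13379 to 15212 genes had a read in a library. Ift88 itself stood at 7.54 CPM (a gene's reads relative to the library's total, scaled by TMM) in WT replicate 1, 19.8 in WT replicate 2, and 3.0, 3.92 and 0.409 in KO replicates 1, 2 and 3. Both WT libraries thus exceeded all KO libraries, in the direction of the titles, with a log2 fold change of -2.48 (SE 1.13, edgeR adjusted p = 0.81). Both WT libraries stood apart in their tissue markers. WT replicate 2 held 100 CPM in all of 10 cardiomyocyte genes, against 57510 CPM in WT replicate 1 and 26350 to 33770 in KO. WT replicate 1 was low in 8 endothelial genes, with 233 CPM against 1539 to 2142 in the other libraries, and in 8 valve interstitial genes, with 2670 CPM against 7333 to 10730. The libraries therefore differed in their level of heart muscle, endothelial and valve interstitial transcripts, and results that rest on a WT library are given with and without it.

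The label of the 6 genes was checked against defining genes of peripheral glia. Cdh19, a cadherin of Schwann cell precursors, and Gjb1, the gap junction protein of myelinating Schwann cells, had no read in any library. Sox10, the transcription factor of the Schwann cell and melanocyte lineages, was read in every library, at 1.48 and 0.78 CPM (WT) against 3.32, 3.77 and 2.33 CPM (KO). Some melanocyte genes were more abundant than Sox10. Dct, an enzyme of melanin synthesis, had 29.4 to 74.7 CPM and Pmel, a protein of the melanosome, 15.7 to 94.8 CPM in the 5 libraries, while Mlana ran from 0.967 to 7.68 CPM and Oca2 and Gpr143 were read in 1 library each. Dhh, a ligand made by Schwann cells and endothelium, had 5.21 to 110 CPM. Cdh19 and Gjb1 were the only genes without a read among the listed myelin and Schwann cell lineage genes. Of 14 myelin genes 13 had a read and 2 were read in all 5 libraries. Of 12 lineage genes 11 had a read and 3 were read in all 5. The absence of Cdh19 and Gjb1 therefore does not decide the label, and the 6 genes are described below by name. In bulk RNA fewer cells of a type and less RNA per cell cannot be told apart.

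Promoter sequences are shown for Cnp and S100b, which were read in every library, and for L1cam, which had no read in 2 of them. They run from 250 bases before to 50 after a RefSeq transcript start on GRCm38.p6, which gave a sequence for 4 of the 6 genes (Cnp, S100b, Ngfr and L1cam). Positions are chr11:100574689-100574988 on the plus strand for Cnp, chr10:76253586-76253885 on the plus strand for S100b and chrX:73880741-73881040 on the minus strand for L1cam. L1cam had a second start site, with a window at chrX:73880785-73881084 that is not shown. Both L1cam windows lie inside the annotated gene, which reaches 73896105 at its 5' end. Capitals mark the SOX core ACAAAG or ACAATG, searched on both strands.
Cnp: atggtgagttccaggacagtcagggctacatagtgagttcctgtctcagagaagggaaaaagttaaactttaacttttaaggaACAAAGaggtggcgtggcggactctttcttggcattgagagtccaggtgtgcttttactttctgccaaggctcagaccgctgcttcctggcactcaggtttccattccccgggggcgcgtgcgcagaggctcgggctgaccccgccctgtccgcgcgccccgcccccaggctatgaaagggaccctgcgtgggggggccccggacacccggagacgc
S100b: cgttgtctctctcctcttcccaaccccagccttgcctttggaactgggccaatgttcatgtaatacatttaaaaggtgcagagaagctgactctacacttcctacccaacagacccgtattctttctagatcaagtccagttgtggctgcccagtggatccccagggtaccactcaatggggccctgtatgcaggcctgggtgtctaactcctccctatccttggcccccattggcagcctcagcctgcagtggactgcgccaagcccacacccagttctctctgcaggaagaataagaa
L1cam: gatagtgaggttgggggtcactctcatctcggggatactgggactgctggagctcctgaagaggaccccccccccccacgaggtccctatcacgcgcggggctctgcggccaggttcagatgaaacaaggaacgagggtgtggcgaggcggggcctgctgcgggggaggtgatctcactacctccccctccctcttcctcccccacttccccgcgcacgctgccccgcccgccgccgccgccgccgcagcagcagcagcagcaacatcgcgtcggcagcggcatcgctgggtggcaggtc
Cnp held 1 SOX core, which begins 167 bases before the start, and the windows of S100b, L1cam and Ngfr held none. Of 27025 promoters of this length 28.8% held such a core, so such a match is common. None of the windows of these 4 genes held the TATA box letters TATAAA on either strand, which 14.2% of promoters hold and which share no full match with the SOX cores. CpG pairs numbered 17 in Cnp, 25 in L1cam (22 at its second start site), 23 in Ngfr and 3 in S100b, where the median promoter had 7.

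Across the 6 genes, per kilobase of the longest transcript, Ncam1 had the highest mean level over the 5 libraries (18.5 CPM per kb), then Cnp (11.8), S100b (1.42), Mbp (0.725), L1cam (0.658) and Ngfr (0.0672). Ncam1 and Cnp overlapped, with 3.50 to 26.2 and 10.7 to 12.3 CPM per kb by library. Cnp lay above S100b in every library, since S100b reached 1.77 at most. Each later pair of neighbours in this order overlapped between libraries. These 6 genes therefore do not form one block of like abundance. How specific each is to Schwann cells was not tested.

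**Figure D1:**
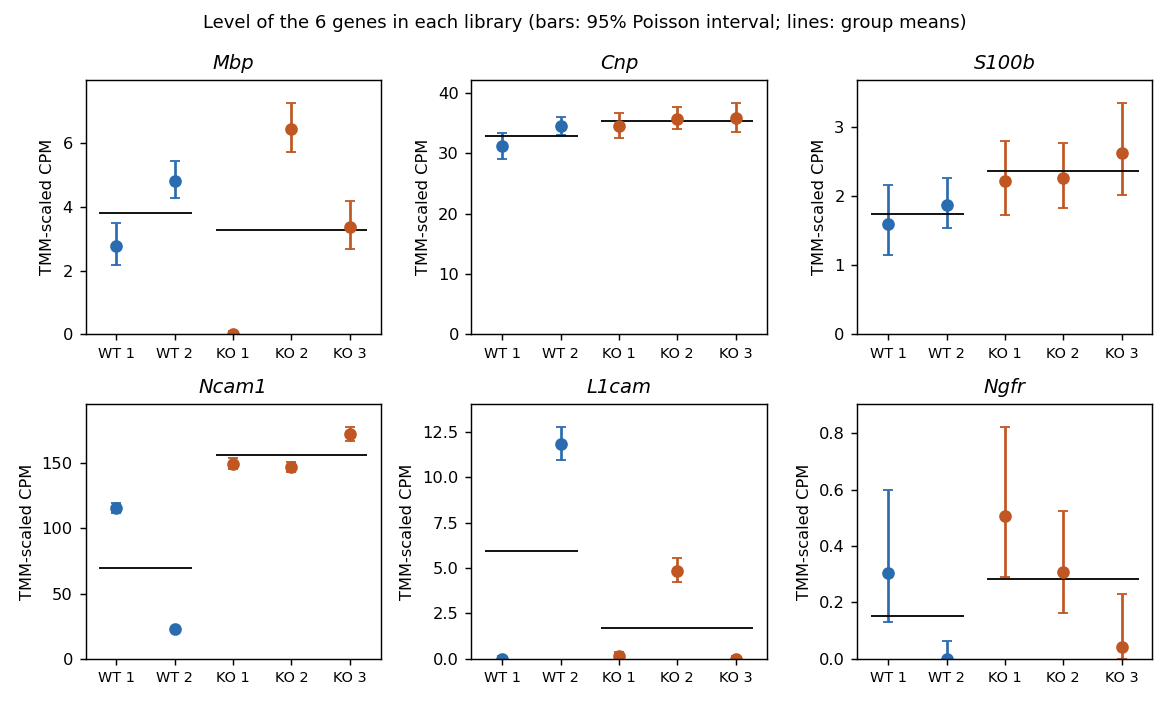
Level of each of the 6 genes by library in TMM-scaled CPM, on a linear axis from 0 for each gene. Points are single libraries with 95% exact Poisson intervals (counting error only), and black lines are group means of 2 WT and 3 KO libraries. Cnp and S100b are nearly level across libraries, Ncam1 is low in WT replicate 2 (23.0), Mbp is at 0 in KO replicate 1 and L1cam is high in WT replicate 2 (11.8) and KO replicate 2 (4.86).

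None of the 6 genes was called between KO and WT at an adjusted p under 0.05 in the edgeR quasi-likelihood test, where the share called over all 14244 genes tested was 0%. At an unadjusted p under 0.05 there were 0 of the 6, against 5.84% of all genes (832 genes). Other tests called 50 genes (edgeR, likelihood ratio), 0 (limma-voom) and 376 (DESeq2), with 0 of the 6 in each. For 3 of the 6 (Cnp, S100b and Ncam1) all KO libraries exceeded both WT libraries, and for 0 all KO libraries lay below. Over all genes tested these shares were 13.5% higher and 11.1% lower. The count does not hold up evenly. The Cnp groups touch within counting error, and with DESeq2 size factors, without a filter or with a filter of 1 CPM in 3 libraries 2 of the genes tested were free of overlap. The median log2 fold change of the 6 was 0.28, beside -0.01 over all genes tested. Without WT replicate 1 these were 0.155 and 0.153, and without WT replicate 2 0.334 and 0.254, so the members then lay close to all genes.

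Of the myelin proteins, Mbp lies on chromosome 18 at 82475146 to 82585637 of GRCm38, plus strand. It had 73 and 278 reads in WT replicates 1 and 2 and 0, 273 and 82 reads in KO replicates 1, 2 and 3. As levels these were 2.78 and 4.82 CPM (WT) against 0, 6.44 and 3.36 CPM (KO). The highest and the lowest library were thus both KO libraries, and the groups overlapped. Zero reads in KO replicate 1 allow up to 0.0948 CPM at the floor of 3 reads. The group means were 3.80 ± 1.44 CPM (SD, n = 2) in WT and 3.27 ± 3.22 (SD, n = 3) in KO. The KO-to-WT log2 fold change of -0.22 (SE 2.04) did not pass (edgeR, adjusted p = 0.994), and leaving out KO replicate 1 gave 0.33, WT replicate 2 gave 0.23, WT replicate 1 gave -0.61 and KO replicate 2 gave -1.18. In limma-voom it was -2.47 (adjusted p = 0.745).

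The absence of Mbp from one library was set beside genes of like abundance. Of 2380 genes whose mean normalized reads lay within 2-fold of those of Mbp (120 reads), 860 (36.1%) had at least 1 library with no read. A zero in one library was thus common among genes of this level. Mbp has 16 annotated transcripts, among them those of the golli unit, which blood cells and neurons make without myelin, and the counts do not separate them. The 7 macrophage genes measured summed to 46.5 and 113 CPM (WT) against 134.5, 76.5 and 185 CPM (KO), with 6 or 7 of them read in each library. Ptprc, the pan-leukocyte gene CD45, stood at 0.0381 and 3.54 CPM (WT) against 5.72, 3.18 and 0 CPM (KO). The part of blood cells in the Mbp level was not tested.

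Cnp lies on chromosome 11 at 100574904 to 100591729, plus strand, and was the steadiest of the 6. It stood at 31.2 and 34.5 CPM (WT) against 34.5, 35.7 and 35.9 CPM (KO). The groups met at WT replicate 2 and KO replicate 1, whose 95% Poisson intervals were 33.0 to 36.0 and 32.4 to 36.6. The group means were 32.8 ± 2.30 CPM (SD, n = 2) and 35.3 ± 0.773 (SD, n = 3), a log2 fold change of 0.11 (SE 0.37, edgeR adjusted p = 0.985). With each library's trend on transcript length removed it was -0.04.

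Between its highest and lowest library Cnp varied 1.149-fold. Among the 11698 tested genes with reads in all 5 libraries the median range was 3.34-fold, and 0.18% had a smaller range than Cnp. The library with almost no cardiomyocyte RNA and the library with little endothelial RNA thus carried Cnp at nearly the level of the rest. The phosphodiesterase is best known from myelin, and many other cells make it at a lower level. A stretch of 154 nt of its exons (4.23%) overlaps those of Dnajc7 on the other strand, and the library kit does not mark the strand, so some reads may belong to that gene.

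S100b, on chromosome 10 at 76253853 to 76261159, plus strand, was low and even. It had 42 and 108 reads in WT, 70, 96 and 64 in KO, or 1.60 and 1.87 CPM (WT) against 2.21, 2.26 and 2.62 CPM (KO). The KO libraries all exceeded the WT libraries, but the Poisson intervals of WT replicate 2 (1.54 to 2.26) and KO replicate 1 (1.72 to 2.79) overlapped. The group means were 1.73 ± 0.194 CPM (SD, n = 2) and 2.37 ± 0.222 (SD, n = 3). Its KO-to-WT log2 fold change of 0.45 (SE 1.34) did not pass (edgeR, adjusted p = 0.984). Its direction was positive in each of the 13 alternatives tried, with values from 0.30 to 0.59.

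The highest library of S100b was 1.64-fold above the lowest, and 8.64% of genes read in all 5 libraries had a smaller range. Of 2035 genes within 2-fold of its mean normalized reads (73.1), 54.8% had a library with no read, and S100b had none. Adipocytes also make S100B. Of 9 adipocyte genes, Adipoq, Cidec, Cfd, Retn and Pck1 had no read in any library. Fabp4, which endothelial cells share, made up nearly all of the list's reads. Fabp4 stood at 556 CPM in WT replicate 1 and 36.0 CPM in WT replicate 2. The 8 endothelial genes summed to 233 and 2005 CPM there, so Fabp4 did not follow them, and its source was not tested. Melanocyte genes, by contrast, were read in each library, with 200.6 and 315 CPM (WT) against 583, 282 and 271 CPM (KO) summed over 10 genes (7, 8, 9, 9 and 8 of them with a read). Ednrb, which endothelial cells share, made up 110 to 315 CPM of these sums. Their part in the S100b level was not tested.

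**Figure D2:**
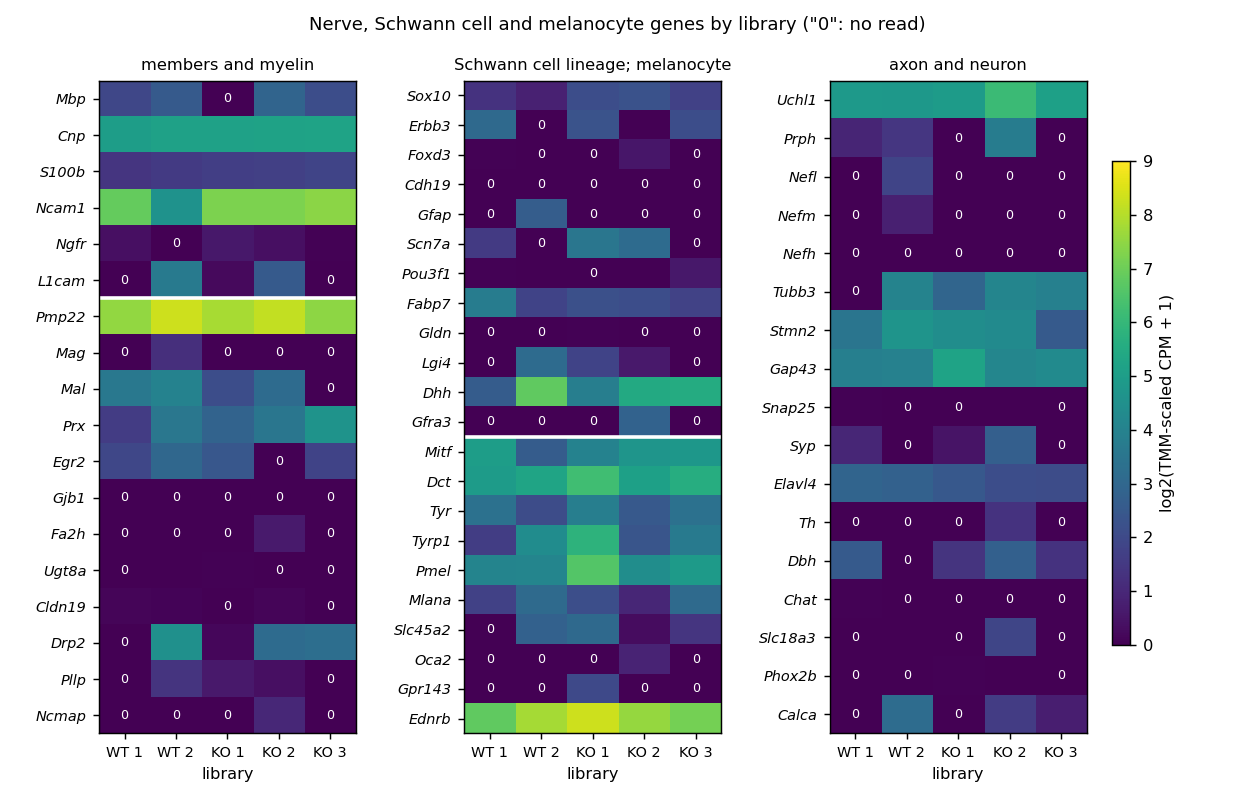
Level of the 6 genes and of named myelin, Schwann cell lineage, melanocyte and axon genes in each library, as log2(TMM-scaled CPM + 1) by colour. Rows are genes, columns are the 2 WT and 3 KO libraries, white lines part the lists and "0" marks a gene with no read. Cnp and Pmp22 are even across the libraries, while Gjb1, Cdh19 and Nefh have no read in any of them.

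The other myelin genes gave the same uneven picture. Of 14 such genes 13 had a read somewhere, 2 had reads in all 5 libraries and 7 passed the filter, 2 of them higher and 5 lower in KO, with 0 called in either direction. Their median log2 fold change was -1.01 beside -0.01 over all genes tested, and it was -0.47 without KO replicate 1 and 4.60 over 9 genes without WT replicate 2, so the sign rests on that last library. Several of those 9 had no read in the WT library left, where fitted values depend on the prior count. Pmp22, a small membrane protein of peripheral myelin that fibroblasts and endothelium also make, was the most abundant, at 183 and 316 CPM (WT) against 225, 290 and 176 CPM (KO). Prx, the periaxin that links the sheath to its basal lamina and is also made by endothelium, stood at 2.06 and 10.9 CPM (WT) against 6.29, 10.7 and 23.8 CPM (KO). Mal, a raft protein of myelin and epithelia, was lower in every KO library (11.2 and 14.8 against 3.32, 7.78 and 0 CPM) with no call (log2 fold change -1.81, SE 1.77, edgeR adjusted p = 0.921). Mag, an adhesion protein of the inner sheath, had 76 reads in WT replicate 2 and 0 in the other libraries.

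Among 12 genes of the Schwann cell lineage, 6 were tested, 2 higher and 4 lower, and 0 were called (median log2 fold change -0.70). The sign of that median turned on leaving out one WT library, to 1.97 over 9 genes without WT replicate 1 and 1.83 over 8 without WT replicate 2. With all libraries kept it also turned, to 0.745 in limma-voom, and over 11 genes to 1.47 without a filter and 1.18 in DESeq2. Sox10 was the 1 tested gene of this list whose KO libraries all exceeded the WT libraries (log2 fold change 1.47, SE 1.38, edgeR adjusted p = 0.913). Erbb3, the receptor through which neuregulin drives Schwann cell growth, ran at 7.50 and 0 CPM (WT) against 3.89, 0.0236 and 3.32 CPM (KO). Dhh, the hedgehog ligand that Schwann cells send to the nerve sheath, stood at 5.21 and 110 CPM (WT) against 13.3, 42.9 and 45.8 CPM (KO). Gfap, a filament of non-myelinating Schwann cells, had 307 reads in WT replicate 2 and 0 elsewhere. Gfra3, a receptor subunit for artemin, had 261 reads in KO replicate 2 and 0 elsewhere. Gfap and Gfra3 were thus each read in a single library, while Sox10, Dhh and Fabp7 were read in all 5.

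Ncam1 was the most abundant of the 6, and the size of its difference between groups depends on which WT library is kept. It lies on the minus strand of chromosome 9 at 49502136 to 49798925. Its level was 115.5 and 23.0 CPM in WT replicates 1 and 2 and 149.5, 146.8 and 172 CPM in KO replicates 1, 2 and 3. The KO libraries all exceeded the WT libraries, and the WT libraries differed 5.02-fold from each other, against 1.17-fold among the KO libraries. The group means were 69.2 ± 65.4 CPM (SD, n = 2) and 156 ± 13.9 (SD, n = 3), with a log2 fold change of 1.17 (SE 0.67) that did not pass (edgeR, adjusted p = 0.841).

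Without WT replicate 2 the Ncam1 log2 fold change was 0.44 (edgeR, adjusted p = 0.581), and without WT replicate 1 it was 2.73 (adjusted p = 0.0276). The second of these passed, in a fit that holds 1 WT library and so no spread between WT libraries. With the trend on transcript length removed it was 0.27 (the longest Ncam1 transcript has 6564 nt). In the 3 libraries whose titles share a code (WT replicate 1, KO replicates 1 and 2) it was 0.36.

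Cardiomyocytes and other muscle cells also make NCAM1, and heart muscle RNA moved with the low library. The 10 cardiomyocyte genes summed to 57510 and 100 CPM in WT replicates 1 and 2, and to 32900, 26350 and 33770 CPM in KO replicates 1, 2 and 3, with all 10 read in every library. Actc1, cardiac actin, stood at 27.7 CPM in WT replicate 2 and at 14310 CPM or more in the other libraries. WT replicate 2 was thus the lowest library for both Ncam1 and the cardiomyocyte list, whereas WT replicate 1 had the most cardiomyocyte RNA and less Ncam1 than any KO library. The part of muscle RNA in the Ncam1 level was not tested. An antisense gene, Gm11149, shares 417 nt (4.81%) of the Ncam1 exons, and reads of the strands cannot be told apart.

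**Figure D3:**
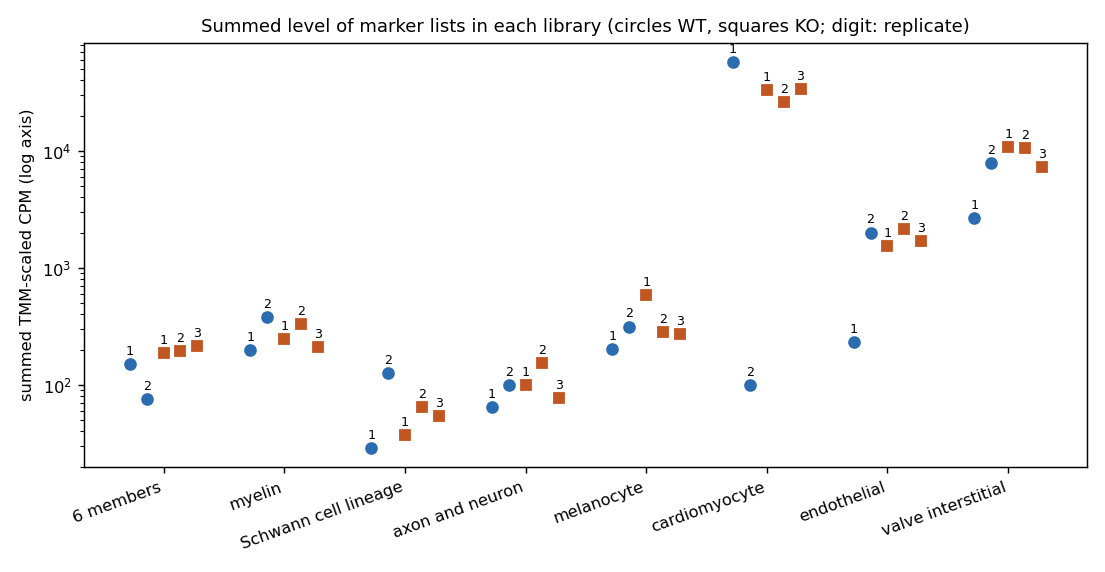
Summed level of the 6 genes and of 7 marker lists by library, as TMM-scaled CPM (log axis). Circles are WT and squares KO libraries, and the digit is the replicate. WT replicate 2 stands at 100 CPM for the cardiomyocyte genes, where the other libraries hold 26350 CPM or more. It is also the lowest library for the sum of the 6 genes (76.0 against 151 to 214). That low sum rests on Ncam1, at 23.0 CPM in WT replicate 2 against 115.5 to 172 CPM in the other libraries. Of the other genes only Ngfr was also lowest there (0 CPM), and L1cam was highest there (11.8 CPM).

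L1cam, on the minus strand of the X chromosome at 73853778 to 73896105, was present in some libraries and missing from others of the same group. It had 0 and 683 reads in WT replicates 1 and 2 and 5, 206 and 0 reads in KO replicates 1, 2 and 3. The levels were 0 and 11.8 CPM (WT) against 0.158, 4.86 and 0 CPM (KO). One library of each group was high and one of each had no read, so the groups overlapped fully. Zero reads allow up to 0.114 CPM in WT replicate 1 and 0.123 in KO replicate 3 at the floor of 3 reads. The log2 fold change of -1.82 (SE 2.81) did not pass (edgeR, adjusted p = 0.957), and leaving out WT replicate 2 turned it positive, against a WT group with no read. Without WT replicate 1 it was -2.87.

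Of 2352 genes within 2-fold of the mean normalized reads of L1cam (117), 10.2% had 2 or more libraries with no read, as L1cam did. The estimated biological coefficient of variation of L1cam was 211%, and 97.5% of tested genes had a value at or below it. Mbp came next among the better covered members (148%, 86.4%), while Cnp stood at 40.5% (10.8%). By this estimate S100b had 97.1% (72.1%), above Ncam1 at 55.2% (40.5%), although the S100b levels ranged only 1.64-fold. Besides axons and Schwann cells, some leukocytes and endothelial cells make L1CAM. A stretch of 100 nt of its exons (1.36%) is shared with Arhgap4 on the same strand.

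Among the relatives and partners of L1 and NCAM only the ankyrin genes Ank2 and Ank3 were read in every library. The others, like L1cam, were missing from at least one. Of 12 relatives and partners of L1 and NCAM, 6 were tested, 4 higher and 2 lower in KO, with 0 called (median log2 fold change 0.23). That median did not hold: leaving out WT replicate 1 gave 2.53, WT replicate 2 gave 6.63, KO replicate 2 gave 0.092 and KO replicate 3 gave 0.70, and it was -1.51 with the length trend removed. Chl1, the closest relative of L1, had 93 reads in KO replicate 2 and 1 in KO replicate 1, Nrcam had 138 reads in KO replicate 1 and Nfasc 116 in KO replicate 3. St8sia2, which adds polysialic acid to NCAM and is typical of developing tissue, stood at 0 and 8.58 CPM (WT) against 7.01, 31.0 and 9.95 CPM (KO), a log2 fold change of 1.89 (SE 1.95, edgeR adjusted p = 0.921). Ank3, the ankyrin G that anchors L1-type molecules to the membrane skeleton, was the most abundant of this list. It was at 7.84 and 6.71 CPM (WT) against 39.4, 39.4 and 40.2 CPM (KO), with no overlap and little spread. Its log2 fold change was 2.45 (SE 0.44, unadjusted p = 0.00128), which did not pass over all genes (edgeR, adjusted p = 0.81).

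**Figure D4:**
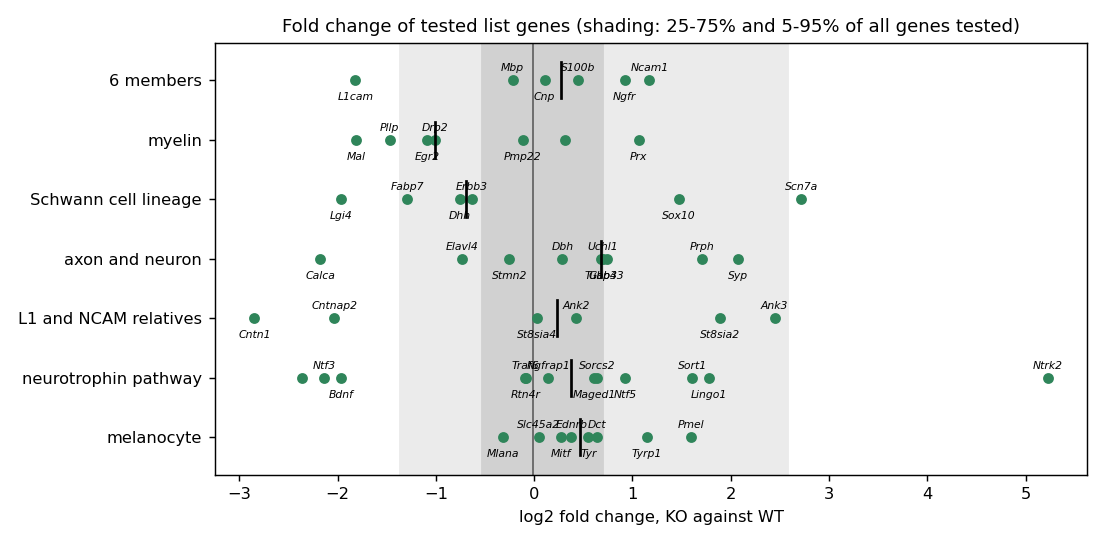
Log2 fold change of KO against WT for every tested gene of 7 lists (edgeR fit to all 5 libraries). Points are genes (a few carry no name), black ticks are list medians, and the shaded bands hold the range from 25 to 75% and from 5 to 95% of all 14244 genes tested. Among the 6 members L1cam lies lowest (-1.82) and Ncam1 highest (1.17), and no gene shown passed the test.

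Ngfr, on the minus strand of chromosome 11 at 95568818 to 95587735, was close to the limit of detection. It had 8 and 0 reads in WT and 16, 13 and 1 in KO, or 0.304 and 0 CPM (WT) against 0.505, 0.307 and 0.0409 CPM (KO). WT replicate 2 and KO replicate 3 were both low, and the groups overlapped. The 95% Poisson interval was 0.131 to 0.60 CPM in WT replicate 1 and 0.289 to 0.821 in KO replicate 1. The log2 fold change of 0.92 (SE 2.62) did not pass (edgeR, adjusted p = 0.984), and a difference was not detectable at this depth. Without WT replicate 2 it was -0.093, and in limma-voom 2.38 (adjusted p = 0.817). Of genes within 2-fold of its mean normalized reads (8.01), 94% had a library with no read.

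The ligands and co-receptors of NGFR were followed in a list of 14 neurotrophin pathway genes. Of these 12 were tested, 7 higher and 5 lower in KO, with 0 called and a median log2 fold change of 0.38. Leaving out WT replicate 1 gave 1.06 and WT replicate 2 gave 0.63, each over 13 genes, and KO replicate 1 gave 0.57. The adaptors Maged1 and Ngfrap1, which bind the receptor's intracellular part, were abundant without it, at 321 to 843 CPM and 87.02 to 249 CPM. Sort1, the sortilin that pairs with NGFR to bind uncleaved neurotrophins, stood at 17.0 and 0.329 CPM (WT) against 16.02, 21.5 and 41.8 CPM (KO), with its lowest value again in WT replicate 2.

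A further 2 neurotrophin genes were picked after their values were seen. Ntf3, which encodes neurotrophin 3, stood at 10.0 and 9.45 CPM (WT) against 1.20, 2.85 and 2.58 CPM (KO), a log2 fold change of -2.14 (SE 0.92, edgeR adjusted p = 0.81). Ntrk2, the receptor TrkB, was higher in every KO library, with 0.381 and 0 CPM (WT) against 10.7, 4.01 and 6.26 CPM (KO), a log2 fold change of 5.23 (SE 2.15, edgeR adjusted p = 0.81). The groups of these genes thus did not overlap, and neither gene passed the test. Over all genes tested 24.6% had no overlap. Of the 12 tested genes of this list, 1 had all KO libraries above and 2 had all KO libraries below the WT libraries. Ntrk3, the receptor TrkC for neurotrophin 3, had 14 reads in KO replicate 2 and 3 in KO replicate 3.

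Some axon and neuron genes were read in every library and others were not. Of 17 such genes 9 were tested, 6 higher and 3 lower in KO, and 0 were called (median log2 fold change 0.68, with -0.66 without KO replicate 2 and 1.06 without WT replicate 2). Uchl1, an abundant neuronal ubiquitin hydrolase that other cells also make, stood at 27.8 and 26.9 CPM (WT) against 29.4, 69.7 and 33.9 CPM (KO). Gap43, a protein of growing axons and Schwann cells, stood at 13.7 and 14.7 CPM (WT) against 35.9, 16.4 and 18.7 CPM (KO). Some neuronal genes had all or most of their reads in one library. KO replicate 2 had 542 reads of Prph, a filament of peripheral neurons, 64 of Th, the first enzyme of catecholamine synthesis, and 112 of Slc18a3, the vesicular acetylcholine transporter. WT replicate 2 had 148 reads of Nefl and 43 of Nefm, the neurofilament genes, which no other library had. Dbh and Syp were highest in KO replicate 2 (5.80 and 5.59 CPM). They stood at 4.83 and 0.951 CPM in WT replicate 1 and had 0 reads in WT replicate 2. Not all genes of the list were highest in KO replicate 2 or WT replicate 2. Elavl4 was highest in WT replicate 1 (6.55 CPM), and Gap43 in KO replicate 1. Mbp and L1cam were at their highest in KO replicate 2 and WT replicate 2. These 2 libraries also had the most axon and neuron genes with a read, 13 in KO replicate 2 and 10 in WT replicate 2. They were also the deepest libraries (40272515 and 53789026 counted reads), and the number of genes with a read depends on depth.

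The profiles of the 6 genes were compared by the root mean square difference of log2(CPM + 1), each gene centred on its mean over the 5 libraries. By this measure genes that vary little, such as Cnp and S100b, lie close whether or not they move together. The closest pair was Cnp and S100b (0.11) and the farthest Ncam1 and L1cam (2.44), with Mbp and L1cam at 1.25 and Mbp and Cnp at 0.997. The genes thus split into an even pair, Cnp and S100b, one gene low in WT replicate 2, and others that appear in some libraries. Over 12332 other genes the 3 nearest to Mbp were Kcnj2 (0.24), Brap (0.24) and Odc1 (0.25), each lowest in KO replicate 1 as Mbp was. Those nearest to Ncam1 were Gprc5c (0.14), Trappc12 (0.16) and Fbxo45 (0.19), each lowest in WT replicate 2. Nearest to L1cam were Aspg (0.12), Pdcd1 (0.28) and Map6d1 (0.29). Gdi2, Cops8 and Ubl7 lay nearest to Cnp (0.022 to 0.058) and Fto, Syt11 and Cbfa2t2 nearest to S100b (0.035 to 0.05). Within a distance of 0.3 lay 1468 genes for Cnp, 1142 for S100b, 40 for Ncam1, 7 for Mbp and 4 for L1cam. Ngfr was too low for this comparison.

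**Figure D5:**
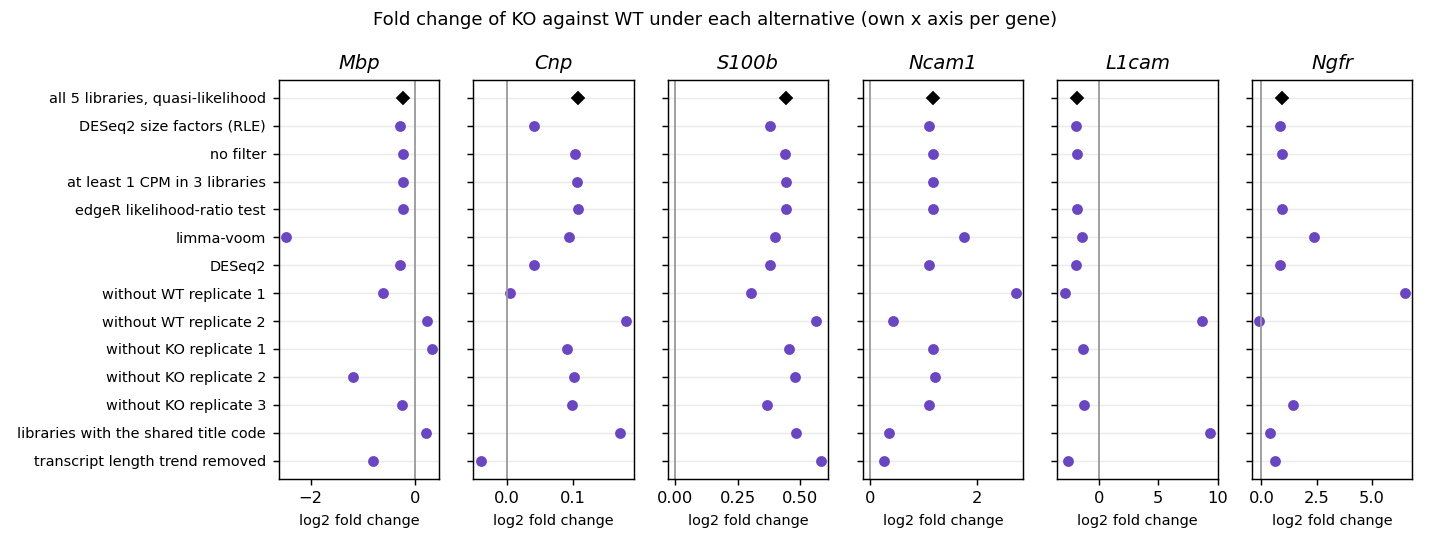
Log2 fold change of KO against WT for each of the 6 genes (columns, each with its own x axis) in the fit to all 5 libraries (diamond) and under 13 alternatives (circles). The vertical line marks no difference. S100b and Ncam1 stay to the right of it throughout, while Mbp, L1cam, Ngfr and Cnp cross it in at least 1 alternative.

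The authors' deposited table gives these genes log2 fold changes of -0.08 for Mbp, 0.04 for Cnp, 0.26 for S100b, 0.82 for Ncam1, 0.11 for Ngfr and -0.30 for L1cam. Its adjusted p-values lay between 0.725 (Ncam1) and 0.986 (Cnp), and Ngfr has none. In that table, too, 0 of the 6 passed, where 184 of 12872 genes with an adjusted p did.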

How the data were processed

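DNase-treated total RNA went into SMART-Seq v4 libraries, per the labels' protocols, a full-length cDNA method for small inputs that does not mark the strand. The submitters' processing notes name FastQC 0.11.5, cutadapt 1.11, HTSeq and DESeq2, with mm10 and GRCm38 as builds. No aligner is named in the sources used here. The table deposited by the authors holds raw counts per gene and library. Per the file headers it also holds the authors' mean normalized signal, log2 fold change with its standard error, test score and p-value. These were not used beyond the last paragraph of the results.

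Counts were fitted in edgeR 4.0.16 (R 4.3.3) with filterByExpr (minimum count 10, 14244 genes left), TMM scaling (factors 0.837 to 1.07) and a two-sided robust quasi-likelihood F test, 2 WT against 3 KO libraries with no covariate. P-values were adjusted by Benjamini-Hochberg over all genes tested, with a threshold of 0.05. CPM are TMM-scaled. Poisson intervals (95%) and the floor of 3 reads cover counting error only. Levels per kb and the length trend use the longest GENCODE M21 transcript (23693 of 24062 symbols matched). The tests were checked on simulated counts. There DESeq2 and the likelihood-ratio test had more unchanged genes among their calls than the quasi-likelihood test or limma-voom. A test that calls fewer genes can have fewer of these for that reason alone. The changed genes that each test recovered are not compared here, so the tests are not ranked. The alternatives were other scaling, filters and tests (limma 3.58.1, DESeq2 1.42.0), each library left out, the libraries with a shared title code, and removal of the length trend.

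The members, the lists and the rule for named genes (the 6 members, Ift88, the 4 most abundant genes of a list, any called gene and the 3 nearest genes of each member) were chosen with earlier results of these data known. Other list genes named were picked after their values were seen. A few list genes enter the list counts and sums but are not reported here by name. Replicate numbers follow the order of deposit and link no libraries.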

Additional observations from a re-analysis of the deposited data

How the results depend on the processing

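No paired analysis was possible because replicate numbers only follow the order of deposit. A block on the title codes would rest on the 3 libraries with a common code, since the other two have codes of their own, and those 3 were compared alone. S100b, Ncam1 and Ift88 kept their direction under all 13 alternatives, and no gene of the 6 was called under any of them except Ncam1 without WT replicate 1 (log2 fold change 2.73, adjusted p = 0.0276, 1 member called). Over all genes 0 were called with all 5 libraries, 50 by the likelihood-ratio test and 376 by DESeq2. Leaving out one library gave 0 to 245 called genes, 0 to 1 called members and 3 to 4 members whose groups did not overlap. The number without overlap was 3 with all libraries, 5 in WT replicate 1 with KO replicates 1 and 2 (titles with a common code) and 1 after the length trend was taken out. With fewer libraries more genes are free of overlap by order alone. The share over all genes was not taken in any alternative, so counts from smaller sets cannot be read beside that of all libraries.

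Signs turned as follows. With one library left out at a time Mbp ran from -1.18 to 0.33 (0.23 without WT replicate 2 and 0.33 without KO replicate 1), Ngfr from -0.093 (without WT replicate 2) to 6.49 and L1cam from -2.87 to 8.71 (without WT replicate 2), and Ncam1 from 0.44 to 2.73. In the set with a common title code Mbp was 0.21 and L1cam 9.39. In limma-voom Mbp was -2.47 and Ngfr 2.38. Without the length trend Cnp was -0.039, and the median of all genes moved from -0.01 to -0.27. Values of L1cam near 9 stand against a WT library with no read, depend on the prior count and are no bound. Fits without a WT library hold 1 WT library, which is assumed to vary like the others. L1cam and Ngfr were not tested with a filter of 1 CPM in 3 libraries, Ngfr not without KO replicate 1, and both not without KO replicate 2. Depth limits Ngfr, with at most 16 reads in a library.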
